A study of Mus musculus with 4 samples.

Results

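The genes of the urea cycle were followed in the liver of female and male mice, microsomic (M) or control (C). The set holds 9 genes, chosen by name among the non-control spots of the array: Cps1, Otc, Ass1, Asl, Arg1, Nags, Slc25a15, Slc25a13 and Glul. They were read by 11 probes in 20 spots, of 36161 gene names, 55681 probes and 59305 spots in all. The study compared small mice that arise without a genetic cause in an inbred colony with mice of normal weight. The data hold 1 Agilent SurePrint G3 Mouse GE array, read in 1 colour, for each of 4 groups: M females (MF), C females (CF), M males (MM) and C males (CM). Per the labels all 4 groups were whole liver of strain C57BL/6J at embryonic day 20, with no allele or agent that sets them apart, and microsomic or normal litter is the only difference named besides gender. The methods of the study describe newborn mice of another C57BL/6 substrain and replicate experiments, and whether an array holds RNA of 1 animal or of several is not stated in the sources used here. No array has a replicate, and a difference between a pair of groups therefore has no error and no p-value.

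The urea cycle is the pathway by which liver turns toxic ammonia into urea. Nags makes N-acetylglutamate, the activator that Cps1 needs to join ammonia and bicarbonate into carbamoyl phosphate in the mitochondrion, and Otc joins this product with ornithine into citrulline. In the cytosol Ass1 and Asl convert citrulline into arginine by way of argininosuccinate, and Arg1 splits arginine into urea and ornithine. Slc25a15 carries ornithine into the mitochondrion in exchange for citrulline, and Slc25a13 (citrin) exports the aspartate that Ass1 uses. Glul, glutamine synthetase, is not an enzyme of the cycle but takes up the ammonia that escapes it, in the hepatocytes around the central vein, whereas the cycle runs mainly in periportal hepatocytes. The genes of the cycle rise in rodent liver around birth.

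A level is the log2 of the processed signal, the background-subtracted intensity of a spot, minus the 75th percentile of its array, which was a signal of 893 on MF, 676 on CF, 925 on MM and 628 on CM. A level therefore says how far a probe lay above that percentile, and levels are compared between arrays for 1 probe, never between probes. All 10 probes used were well above background on all 4 arrays, and no spot of these genes was saturated. Slc25a13 has 1 probe, whose spot carried the non-uniformity flag of the scanner software on CM, so that its values are given but not counted, and 8 genes and 10 probes remained. A gene with 2 probes (Otc and Ass1) is counted by its brightest.

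The probes set what each value reads, and 4 are shown, those of Cps1, Asl and Arg1, which were lower on both M arrays, and the Otc probe with repeated spots. That these lie in coding sequence is background knowledge, as no exon annotation on mm9 was used here. They are 60 bases long, and none of their bases is set apart by capitals. Positions are given on mm9, as the array annotation has them.
Cps1, A_55_P1999057, chr1:67276029-67276088, plus strand: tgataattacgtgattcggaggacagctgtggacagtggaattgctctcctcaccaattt
Otc, A_51_P126563, chrX:9853843-9877490, plus strand: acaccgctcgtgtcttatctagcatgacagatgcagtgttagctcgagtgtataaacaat
Asl, A_51_P174645, chr5:130487964-130488549, minus strand: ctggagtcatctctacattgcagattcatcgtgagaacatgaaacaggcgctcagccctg
Arg1, A_51_P303160, chr10:24636194-24636253, minus strand: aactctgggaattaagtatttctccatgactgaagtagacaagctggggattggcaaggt
The Otc probe spans 23648 bases of the genome and the Asl probe 586, so both cross at least 1 intron and read joined exons. Ass1 was read by A_55_P2143070 at chr2:31375998-31376057 and A_55_P2004781 at chr2:31376068-31376127, neighbours on the plus strand. The other Otc probe, A_52_P286360, lies at chrX:9897267-9897326.

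In the mitochondrial steps, Nags and the entry enzyme Cps1 were slightly lower on the M array of each sex. Otc was slightly higher on its brightest probe. The Nags level was 1.28 on MF, 1.60 on CF, 1.58 on MM and 1.78 on CM. Each M array lay below the C array of its sex, by 0.32 in females and 0.20 in males, and neither difference reached 1.5-fold. The sign of the Nags difference changed with the processing, from -0.34 to 0.08 in females and from -1.65 to 0.36 in males. The Cps1 level was 6.46 on MF, 7.03 on CF, 6.12 on MM and 6.69 on CM. Both M arrays lay below both C arrays, and the Cps1 signal was 1.49-fold lower in MF than in CF and 1.49-fold lower in MM than in CM, just within the 1.5-fold limit. Over 9 other ways of processing, the log2 difference of Cps1 ran from -1.28 to -0.18 in females and from -0.97 to -0.01 in males, below 0 in each. Some of these settings could not change it: keeping flagged spots, averaging probes and the other filters on dim probes. This is so for every gene here with 1 unflagged probe.

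Otc went the other way on its brightest probe, with a level of 3.68 on MF, 3.28 on CF, 3.43 on MM and 3.25 on CM. Both M arrays were above both C arrays, by 0.41 in females (1.33-fold) and 0.19 in males (1.14-fold), both within 1.5-fold. The log2 difference stayed above 0 under the 9 other settings, from 0.05 to 0.81 in females and from 0.08 to 0.75 in males. The other Otc probe, A_51_P126563, is printed 10 times on each array, and 9 of its spots carry no outlier flag. Its mean level was 1.75 ± 0.30 on MF, 1.94 ± 0.17 on CF, 3.27 ± 0.10 on MM and 2.64 ± 0.16 on CM (SD over 9 spots of the same array, which is technical). In males these 9 spots did not overlap, at 3.11 to 3.38 on MM against 2.33 to 2.85 on CM, a 1.55-fold higher mean in MM. The spot left out, flagged on MF and CF but on neither male array, read 2.83 on MM and 2.98 on CM. Over all 10 spots the male arrays therefore overlapped. In females the 9 spots overlapped, at 1.15 to 2.22 on MF against 1.54 to 2.10 on CF, with a mean lower by 0.19 in MF. The Otc probes thus gave opposite signs in females and the same sign in males. On this probe both male arrays stood above both female arrays, which the brightest probe did not show.

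**Figure D1:**
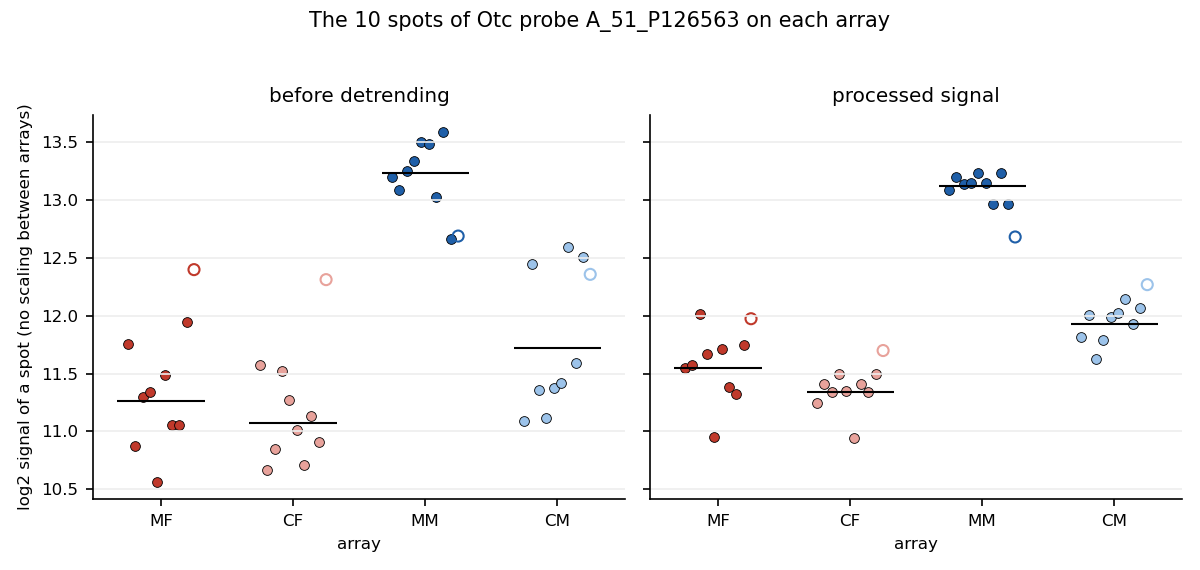
Log2 signal of the 10 spots of the Otc probe A_51_P126563 on each array, before (left) and after (right) division by the detrending factor of the scanner software, with no scaling between arrays; filled points are the 9 spots used, the open point is the spot flagged on at least 1 array, and lines are means of the filled points. After detrending the SD on CM was 0.16, against 0.62 before, and the MM spots lay above the CM spots.

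The detrending factor, by which the software divides each spot for its place on the array, was itself large for some of these spots. Over the 9 Otc spots of CM it ran from 0.60 to 1.37, and the SD of their log2 signal was 0.62 before and 0.16 after the division. Single spots cannot be checked in this way. Over 238 probes printed 10 times, the pooled SD between spots of 1 array was 0.26 on MF, 0.28 on CF, 0.23 on MM and 0.30 on CM. It is the square root of the mean variance of these probes. With spots on different arrays taken as independent, these SDs combine to 0.39 (MF and CF) and 0.38 (MM and CM) for a difference between 2 single spots. This calculated spread is technical and leaves out the animals.

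Among the enzymes, the largest differences were those of Asl and Arg1 in females and of Ass1 in males, all in cytosolic steps. With normexp background correction Asl (-1.44), Arg1 (-1.05) and Nags (-1.65) in males and Ass1 (-1.06) in females also passed 1.5-fold. So did Cps1 in females (-0.81) and males (-0.97), Glul in females (-0.98) and, higher in MM, Slc25a15 in males (0.80). The Ass1 level on its brightest probe was 7.25 on MF, 7.43 on CF, 5.85 on MM and 7.32 on CM. MM stood apart from the other arrays, 2.76-fold lower than CM, and MF differed from CF by -0.18. The neighbouring Ass1 probe A_55_P2143070 gave 7.56 on MF, 7.04 on CF, 5.25 on MM and 6.07 on CM. Here too MM was the lowest array, 1.77-fold below CM, but MF was 1.43-fold above CF, and both male arrays were below both female arrays. Lower Ass1 in MM than in CM was thus seen on both probes and, on the brightest, under the 9 other settings (log2 difference -1.67 to -0.91).

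The Asl level was 4.71 on MF, 6.10 on CF, 5.33 on MM and 5.76 on CM, so that both M arrays were below both C arrays. The signal was 2.62-fold lower in MF than in CF and 1.35-fold lower in MM than in CM. Arg1 had the same order, with a level of 6.22 on MF, 7.50 on CF, 6.37 on MM and 6.91 on CM. It was 2.42-fold lower in MF than in CF and 1.45-fold lower in MM than in CM. The female differences stayed beyond 1.5-fold under the 9 other settings, at -1.89 to -0.99 for Asl and -1.94 to -0.88 for Arg1 on the log2 scale. Among these settings, those on flagged spots, averaged probes and dim probes could not change either gene. The male differences reached -1.44 for Asl and -1.05 for Arg1, were below 0 under each setting that scaled the arrays, and were 0.13 and 0.02 with the deposited signal left unscaled, which raises every difference between MM and CM by 0.56.

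**Figure D2:**
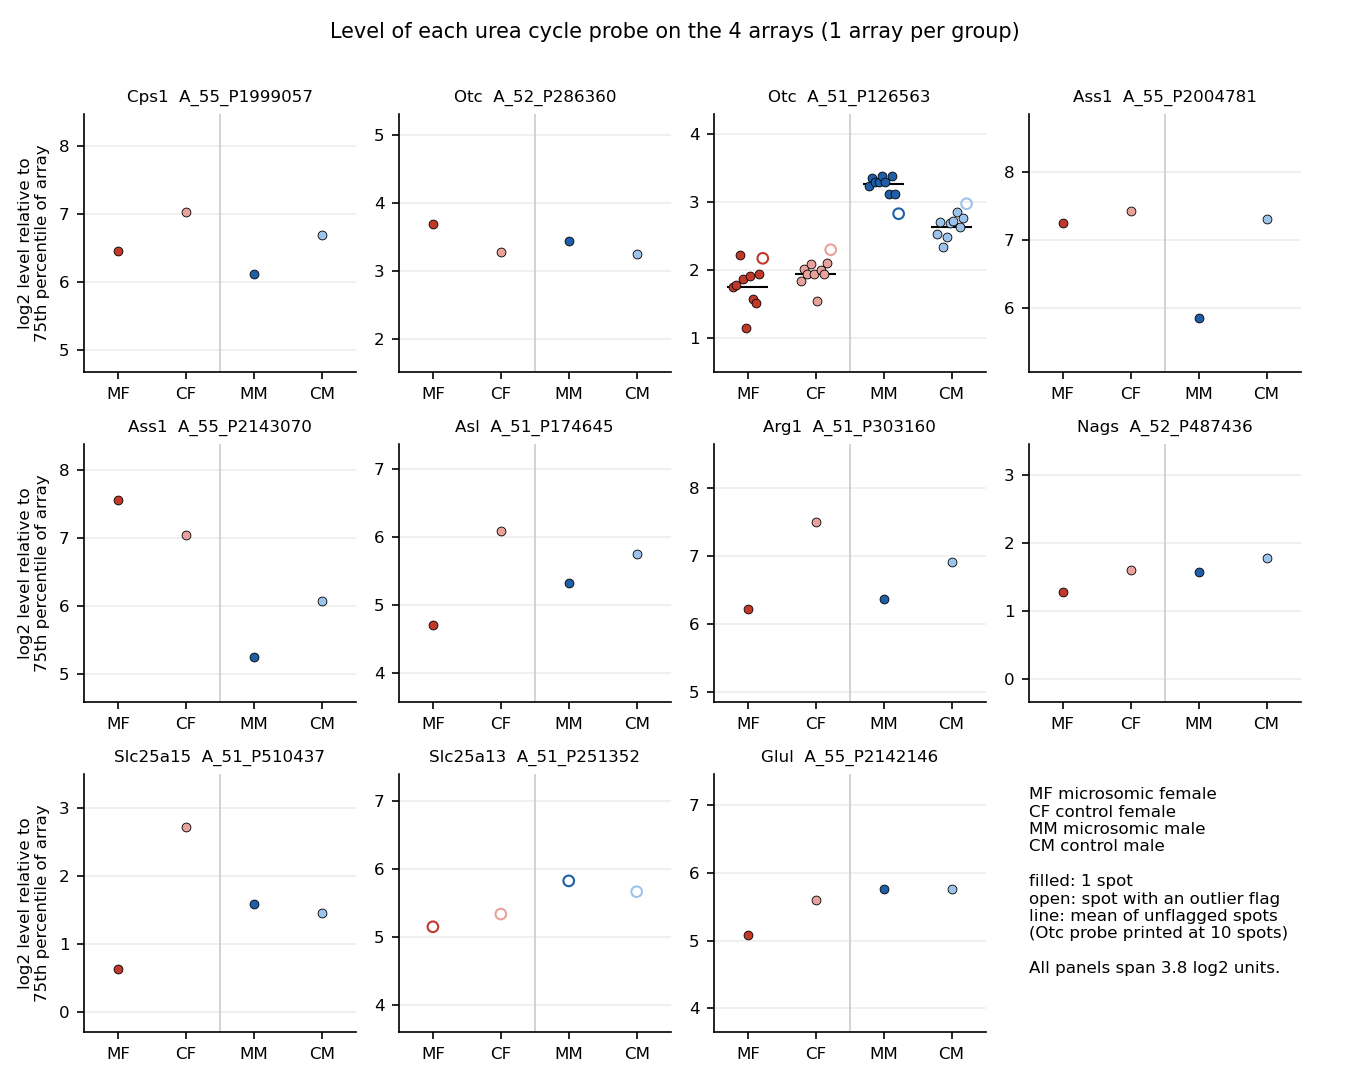
Level of each of the 11 probes (log2 signal relative to the 75th percentile of the array, vertical axis) on the arrays MF, CF, MM and CM, with the same span in each panel; points are spots, lines are means of the unflagged Otc spots, and open points are spots flagged on at least 1 array. Asl, Arg1 and Cps1 were lower on both M arrays, Ass1 was lowest on MM, and Slc25a15 was lowest on MF.

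Slc25a15, the ornithine carrier, had the largest difference of the set. Its level was 0.62 on MF, 2.72 on CF, 1.58 on MM and 1.46 on CM. MF was the lowest array and CF the highest, a 4.28-fold lower signal in MF, while the males differed by 0.13. The female difference ran from -2.22 to -1.70 over the 9 other settings and the male one from 0.03 to 0.80. The aspartate carrier Slc25a13, flagged on CM, gave 5.15 on MF, 5.34 on CF, 5.82 on MM and 5.67 on CM, differences of -0.19 and 0.16. Glul stood at 5.08 on MF, 5.60 on CF, 5.76 on MM and 5.75 on CM. It was lower in MF than in CF by 0.52, within 1.5-fold, and differed by 0.01 in males.

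Counted together, 3 of the 8 genes (37.5%) passed 1.5-fold between MF and CF, namely Slc25a15, Asl and Arg1, all lower in MF. Among the 25538 genes compared, 40.9% passed in either direction, 21.1% lower and 19.8% higher in MF. Between MM and CM 1 of the 8 genes (12.5%) passed, Ass1, lower in MM. Among the 26315 genes compared there, 40.8% passed, 23.1% lower and 17.7% higher in MM. With scaling to the 75th percentile, the share past 1.5-fold in either direction was thus not above that of all genes in either sex. The share lower in M was 37.5% against 21.1% in females and 12.5% against 23.1% in males. The median log2 difference of the 8 genes was -0.55 in females, against -0.04 over all genes, and -0.32 in males, against 0 over all genes. In females 7 of 8 genes were lower in MF, and in males 5 of 8 were lower in MM. Cps1, Ass1, Asl, Arg1 and Nags, 5 of 8 (62.5%), were lower in M in both sexes, against 28.4% of the 19303 genes that passed background everywhere. This share moves with the scaling of all genes: it was 50% of the 8 genes against 17.4% with median centring, 75% against 29.02% with quantile normalization and 75% against 25.9% with normexp. With the deposited signal left unscaled it was 12.5% (Cps1) against 5.88%, as Ass1 (0.23) and Nags (0.08) were then above 0 in females and Asl (0.13), Arg1 (0.02) and Nags (0.36) in males. Median centring turned Nags in males (0.03), as did subtraction of the neighbouring spots (0.07), and averaging its probes turned Ass1 in females (0.17). Only Otc (12.5%) was higher in both, against 21.1% of those genes.

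**Figure D3:**
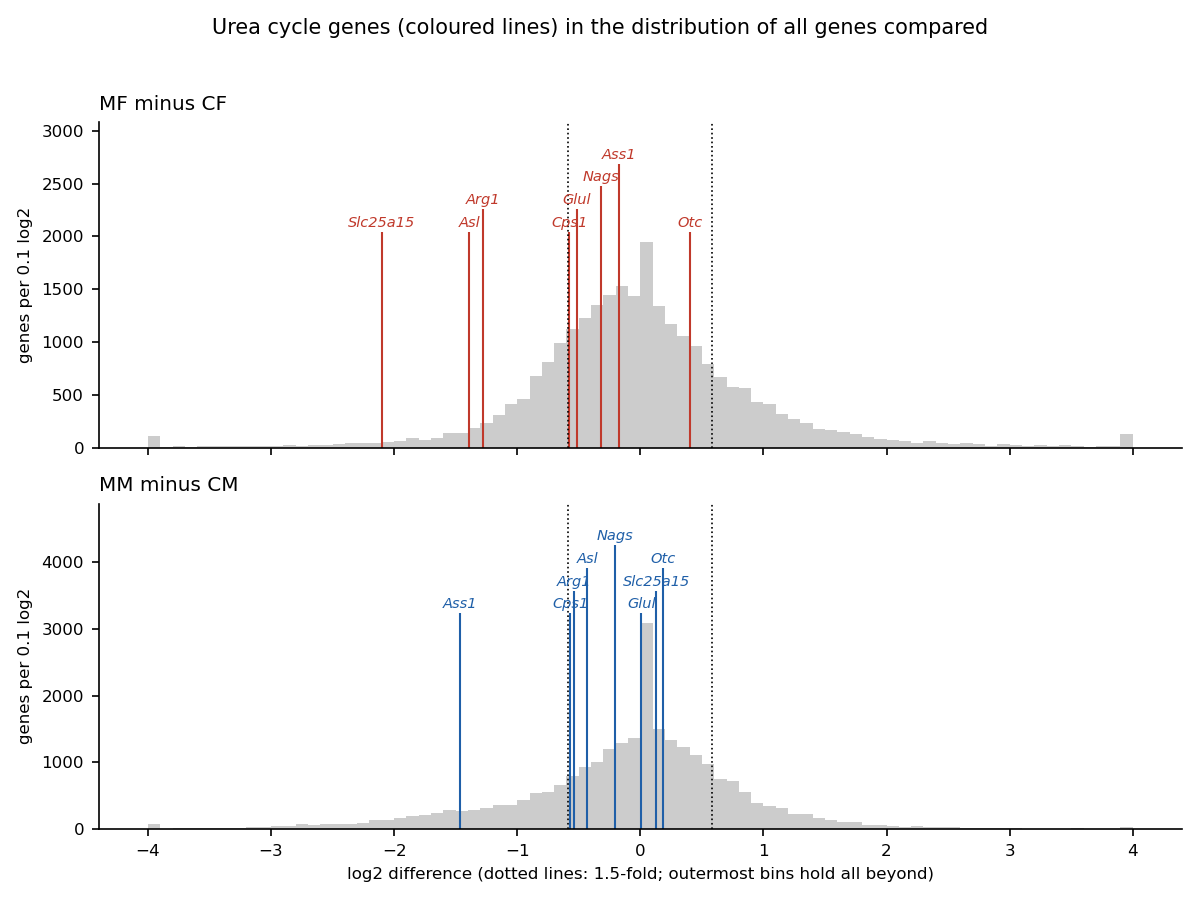
Number of genes (vertical axis) by log2 difference (horizontal axis, bins of 0.1) for MF minus CF (top) and MM minus CM (bottom) over all genes compared, with the 8 urea cycle genes as labelled lines and 1.5-fold as dotted lines; genes for which only a bound of 0 could be given stand in the bin just above 0. In females 7 of the 8 lines lie below 0 and in males 5.

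Most of these genes are bright, and bright genes had their own shift in females. Cps1, Ass1, Asl, Arg1 and Glul lie among the brightest 10% of the 19303 genes, Otc in the next 10% and Nags and Slc25a15 further down. The brightest 10% shifted by a median of 0.49 (log2) between MF and CF, where 44.6% of its genes were over 1.5-fold higher in MF and 6.01% lower. Asl and Arg1 were among those 6.01%. Between MM and CM the median of the same genes was -0.08, and 14.9% were over 1.5-fold lower in MM, Ass1 among them.

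A gap between the differences of 2 genes is the same with the 75th percentile, median centring or no scaling, which differ by a constant for each array. The log2 difference of Otc exceeded that of Arg1 by 1.68 in females and 0.73 in males, and that of Asl by 1.80 and 0.62. It exceeded that of Ass1 by 0.58 in females and 1.65 in males. With the probes of each gene averaged, the gap of Otc to Ass1 in females was -0.06, so its sign rested on the choice of probe. Quantile normalization moved the gap of Otc to Ass1 in females to 1.21. Normexp with quantile normalization moved it to 1.11, and in males moved the gap to Arg1 to 1.22 and that to Asl to 1.60. Leaving the signal unscaled raised every difference by 0.40 in females and 0.56 in males.

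**Figure D4:**
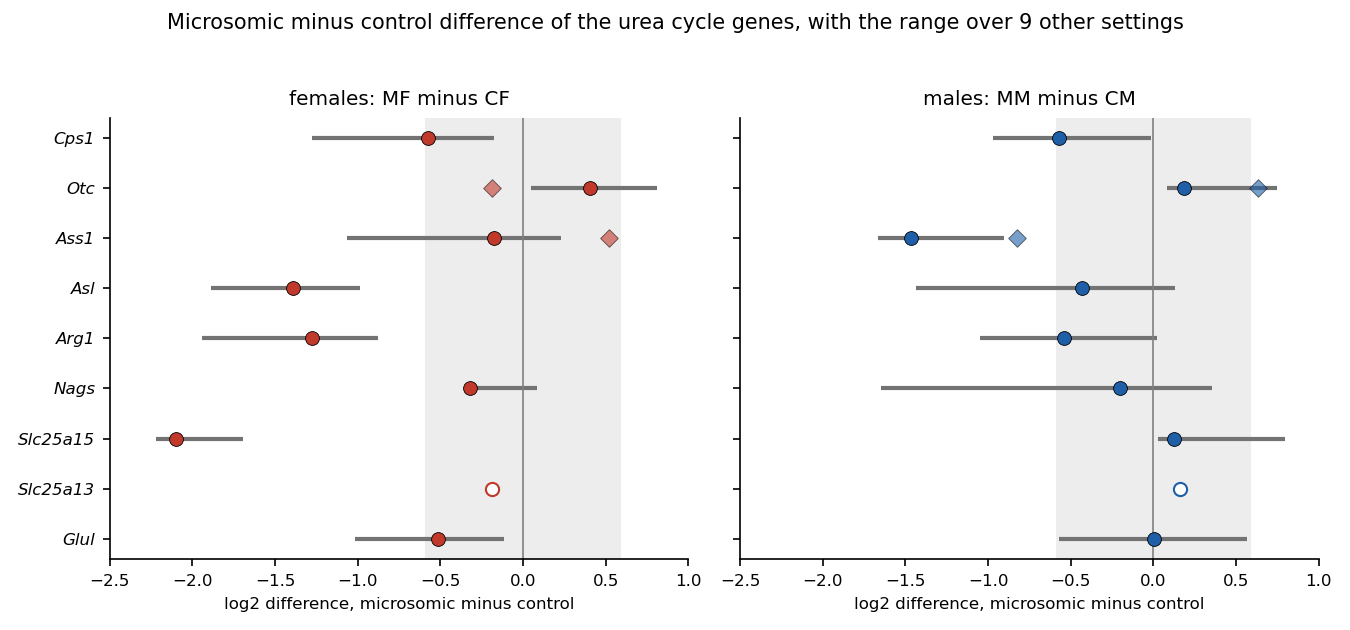
Log2 difference between M and C (horizontal axis) of each gene in females (left) and males (right); circles are the brightest probe, diamonds the other probe of Otc and Ass1, open circles the flagged Slc25a13 probe, horizontal lines the range over 9 other settings, and the grey band 1.5-fold. Slc25a15, Asl and Arg1 in females and Ass1 in males stay outside the band over all of these settings.

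The groups were tested with a limma fit to the 4 arrays together, in which sex was a second term and 1 residual degree of freedom was left. None of the 8 genes was called, as was the case for all 19303 genes tested (0% at an adjusted p under 0.05, 853 or 4.42% at an unadjusted p under 0.05). The differences of the set that were largest for their error were those of Arg1 (log2 difference -0.91, SE 0.43, limma adjusted p = 0.995) and Asl (-0.91, SE 0.45, limma adjusted p = 0.995). The 95% interval of Cps1 ran from -1.54 to 0.39, that of Otc from -0.67 to 1.26 and that of Slc25a15 from -2.34 to 0.37, so that neither a fall nor a rise was resolved. Whether the sexes differed in the M to C difference of a gene could not be tested with 1 array per group.

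Genes that feed nitrogen into the cycle or use its products moved in both directions. Of 30 such genes 26 were measured, 10 over 1.5-fold higher and 9 lower in MF (median log2 difference -0.01), and 6 higher and 5 lower in MM (median 0.24). These were 73.1% of the list in females and 42.3% in males, against 40.9% and 40.8% of all genes. Got1, the cytosolic aspartate aminotransferase, was at 5.48 on MF, 7.32 on CF, 5.10 on MM and 6.63 on CM, 3.57-fold lower in MF and 2.90-fold lower in MM. Gls2, the liver glutaminase, was 2.82-fold lower in MF and 2.30-fold lower in MM. Rhbg, an ammonia transporter, was 2.01-fold and 1.92-fold lower. Slc25a22, a mitochondrial glutamate carrier, was 1.88-fold higher in MF and 3.55-fold higher in MM. The mitochondrial partner enzyme Got2 (0.95 and 0.59) and Odc1, which makes putrescine from ornithine (1.04 and 0.72), were higher in M in both sexes (log2 differences), and were named after their values were seen. The levels of Got1 and Gls2 on both M arrays lay below those on both C arrays, as for Cps1, Asl and Arg1.

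**Figure D5:**
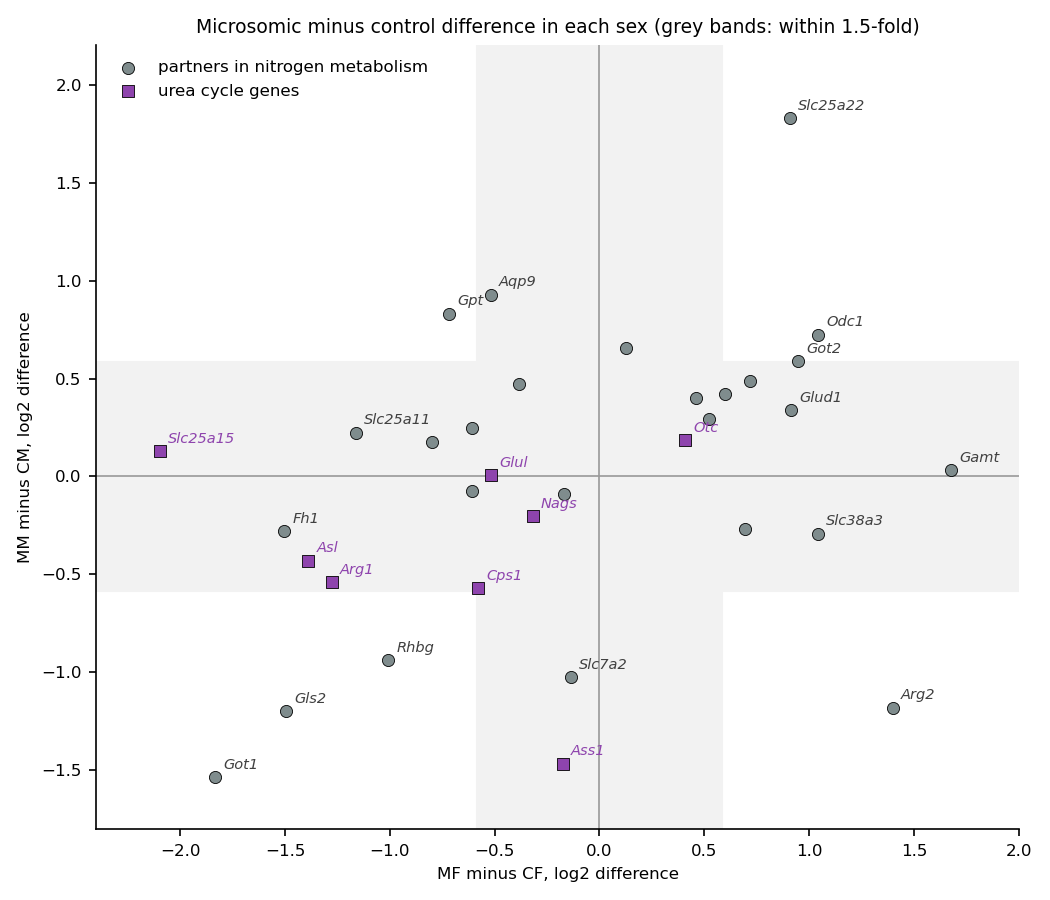
Log2 difference MF minus CF (horizontal axis) against MM minus CM (vertical axis) for the 8 urea cycle genes (squares) and 26 partner genes (circles), 1 point per gene, grey bands within 1.5-fold; the partners farthest from the centre were labelled after their values were seen, and the female value of Arg2 is a lower bound. Got1, Gls2 and Rhbg lie beyond 1.5-fold lower in both sexes and Slc25a22 beyond 1.5-fold higher.

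A list of regulators of the cycle, which also holds 3 enzymes that answer to the same hormones (Tat, G6pc and Pck1), moved in both directions. Of its 16 genes 15 were measured, 5 over 1.5-fold higher and 3 lower in MF (53.3%), and 3 higher and 2 lower in MM (33.3%), against the 40.9% and 40.8% of all genes. G6pc is among the 5 and Tat among the 3 of the females, and G6pc is among those lower in MM. Hnf4a, a nuclear receptor that drives hepatocyte genes, was 1.56-fold higher in MF and 2.01-fold higher in MM. Its level was above that of Glul on every array, which places it among the brightest 10% of genes. Of these, 44.6% were over 1.5-fold higher in MF (median log2 difference 0.49, against 0.64 for Hnf4a). In MM 10% were over 1.5-fold higher (median -0.08, against 1.01 for Hnf4a). Of 9 periportal genes measured, 2 were higher and 3 lower in MF, and 3 higher and 3 lower in MM (55.6% and 66.7%). Among them Sds, serine dehydratase, was 11.3-fold lower in MF and 5.10-fold lower in MM, and Cyp2f2, a cytochrome P450, was 2.21-fold and 1.71-fold higher. Of 11 perivenous genes, 6 were higher and 2 lower in MF, and 5 higher and 1 lower in MM (72.7% and 54.5%), against 19.8% higher and 21.1% lower of all genes in females and 17.7% and 23.1% in males. In bulk RNA, fewer cells of a type and less RNA per cell cannot be told apart.

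The tissue label was checked against marker genes. Of 18 hepatocyte genes listed, 17 were measured, each well above background on every array, and their median log2 difference was 0.22 in females and -0.24 in males. Genes of other organs were also present. For the intestine list the median between MF and CF was 3.61, and 11 of 14 genes were over 1.5-fold higher in MF, while between MM and CM it was -0.10, with 3 of 12 higher and 4 lower. Its summed level, relative to the 75th percentile on a linear scale, was 298 on MF, 153 on CF, 210 on MM and 135 on CM. Such a sum adds different probes and is set by the brightest. That was Tff3 on every array (7.40 on MF, 7.05 on CF, 6.67 on MM and 6.86 on CM), followed on MM by Apoa4 (6.10) and Fabp2 (4.98). The sum therefore does not measure an amount of intestinal RNA. Cdx2 and Cdh17 were well above background on MF alone, and Muc2 on no array. Intestinal epithelium also expresses Cps1, Otc and Ass1. The heart list had a median of -7.31, with 11 of 12 genes lower in MF, and of -1.48 in males, 7 of 11 being lower and 2 higher in MM. It had a summed level of 2.73 on MF, 230 on CF, 3.15 on MM and 7.06 on CM. The granulocyte and macrophage list had a median of 0.83 in females and 0.06 in males, the erythroid list -0.32 and -0.25, the kidney tubule list 0.47 and -0.07, and the exocrine pancreas list 0.38 and -0.75. The part of these tissues in the differences of the urea cycle genes, of partners such as Got1 and of the regulators was not tested.

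The upstream windows of Otc and Ass1 are shown because the brightest probes of these genes differed in direction in M. RefSeq promoters on GRCm38.p6 were matched for 6 of the 9 genes, and not for Cps1, Asl and Arg1. Of each, the 250 bases before the start were searched on both strands for these motifs, and matches, which may overlap one another, are in capitals. The motif TATAAA marks a core promoter element of many genes with focused starts. The motif GGGCGG is read by Sp1 and its relatives. The CCAAT box was searched by its letters and is read by NF-Y. The E-box was searched as CACGTG, a site of Usf and Myc proteins. For Hnf4a the letters AGTTCA were searched, one part of its usual site.
Otc, chrX:10252055-10252304, plus strand: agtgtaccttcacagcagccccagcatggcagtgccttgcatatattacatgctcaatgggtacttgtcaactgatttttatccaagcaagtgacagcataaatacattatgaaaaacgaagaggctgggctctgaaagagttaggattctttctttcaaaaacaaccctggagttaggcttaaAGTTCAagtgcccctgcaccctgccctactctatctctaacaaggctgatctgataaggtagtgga
Ass1, chr2:31470020-31470269, plus strand: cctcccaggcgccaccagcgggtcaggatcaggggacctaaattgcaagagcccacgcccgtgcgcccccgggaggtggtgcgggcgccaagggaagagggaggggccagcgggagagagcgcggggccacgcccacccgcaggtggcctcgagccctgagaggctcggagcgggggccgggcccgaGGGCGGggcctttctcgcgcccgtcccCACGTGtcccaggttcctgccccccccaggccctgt
The Otc window holds 1 AGTTCA, found in 11.8% of the 32851 promoter windows. The Ass1 window holds 1 GGGCGG, found in 32.7%, and 1 CACGTG, found in 6.02%. These matches describe the letters only.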

How the data were processed

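Gene expression in liver was read on 4 Agilent 1-colour arrays with Cy3, scanned by the authors and quantified in Agilent Feature Extraction. The processed signal they deposited is a background-subtracted intensity on a linear scale, already divided by a detrending factor, a ratio deposited beside it for each spot, and not normalized between arrays. All 62976 entries of the deposited value table equal this signal. The share of the 59305 non-control spots that stood well above background ran from 56.1% to 65.3%, and the number of arrays limits the precision.

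The log2 of the signal minus the 75th percentile of the array was compared. An outlier flag on 1 array removed a spot from all 4 (1754 spots). The spots of each probe were averaged, and genes with several probes were read by the brightest. A gene entered a comparison if either array of the pair had it well above background (an array without signal gave a bound, set to 0 if it pointed the other way), and counted past 1.5-fold. limma 3.58.1 (R 4.3.3) was fitted over all genes well above background on all 4 arrays with Benjamini-Hochberg adjustment. It was also run on simulated data with variances drawn from its own fitted prior. Such data cannot test the use of the sexes as replicates. The alternatives were median centring, quantile normalization, normexp (offset 50) with quantile normalization, no scaling, flagged spots kept, the mean over probes, each probe counted, other filters on dim probes, a 2-fold limit and, chosen after seeing the data, the median of the neighbouring spots subtracted.

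The genes, the other lists and the naming rule (all urea cycle genes, and from each other list at most 4 genes past 1.5-fold the same way in both sexes) were chosen with earlier results of these data known. Cdx2, Cdh17, Muc2 and Tff3 of the intestine list were named outside this rule, after their values were seen. Not every gene that met the rule is named. Probe positions are on mm9, and promoters are RefSeq windows on GRCm38.p6.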

Additional observations from a re-analysis of the deposited data

Results flagged for a closer look

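Probes with opposite directions in the sexes stood out in 3 cases, and in none was the difference between the sexes tested. For Slc25a15 the difference between M and C was -2.10 in females and 0.13 in males, a gap of -2.23 on the log2 scale. For the Ass1 probe A_55_P2143070 it was 0.52 in females and -0.82 in males, a gap of 1.34, while the brighter Ass1 probe was lower in M in both sexes. For the Otc probe A_51_P126563 it was -0.19 in females and 0.63 in males, a gap of -0.82, while the brighter Otc probe was higher in M in both sexes.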

How the results depend on the processing

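The median log2 difference of the 8 genes in females (-0.55) was -1.15 after quantile normalization, -1.02 with normexp and -0.15 without scaling, and 6 genes in place of 3 passed 1.5-fold after quantile normalization and with normexp. In males the median (-0.32) was 0.24 without scaling and -0.96 with normexp, and the count of 1 became 3 without scaling, 6 with normexp and 3 with each probe counted. The share of all genes past 1.5-fold was not counted under these alternatives, so whether these counts exceed it is not known. Of the other alternatives for these medians and counts and for the limma call, 39 left the value within the limits set for a change, and of those for single genes 31 moved it and 113 did not. Part of this was fixed in advance. Keeping flagged spots and the filters on dim probes could change none of these 8 genes, and averaging probes could change only Otc and Ass1. Median centring shifts every single-gene difference by 0.10 in females and 0.24 in males, within the limit for a change (0.39 and 0.38). No scaling shifts each by 0.40 and 0.56, past that limit. Under both settings the outcome for single genes was thus set beforehand. Normexp starts from the mean signal, without the detrending factor: the log2 ratio of this factor between MM and CM ran from -1.41 (Nags) to 0.78 (Slc25a15) over the 10 probes, and the difference between MM and CM before detrending, scaled to the 75th percentile, from -1.89 to 0.96. Other signs that changed with the processing were those of Nags and Glul in males (-1.65 to 0.36 and -0.57 to 0.57) and of Ass1 and Nags in females (-1.06 to 0.23 and -0.34 to 0.08). By limma none of the 8 genes was called with median centring, quantile normalization, normexp or no scaling. The same held with flagged spots kept, no sex term or an intensity trend. The fit was not run for the alternatives on probes, dim signals and neighbouring spots. Without scaling 10 other genes of 19303 were called. An unadjusted limma p under 0.05 was reached by 3 of the 8 genes after quantile normalization, against 4.18% of all genes tested. With normexp it was reached by 2 of the 8, against 2.15%. In this fit the sexes stand as the replicates. No paired analysis was possible because each group has 1 array and the labels give no replicate numbers (sex is a term of the limma fit), and no replicate could be left out.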

Other observations

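G6pc, glucose-6-phosphatase, is one of the hormone-responsive enzymes kept in the list of regulators and was singled out after its values were seen. Its level was 8.43 on MF, 7.06 on CF, 4.66 on MM and 8.18 on CM, so that MM, the array on which Ass1 was lowest, was also lowest for G6pc. Tat, tyrosine aminotransferase, also singled out after its values were seen, was at 5.49 on MF, 7.17 on CF, 5.05 on MM and 5.19 on CM. Arg2, the mitochondrial arginase that is scarce in liver, was at -2.90 on MF, -3.87 on MM and -2.69 on CM and not well above background on CF (measured at -4.30). In females the MF signal was thus higher by at least 2.64-fold, and in males the CM signal was 2.27-fold that of MM. Arg2 was likewise named after its values were seen.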
